A study of Mus musculus with 4 samples.

Results

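MicroRNA genes were taken from a table of H3K27me3 read counts over mouse genes, in which each gene is represented by a window of the gene with 3 kb on each side. The members were all windows whose Entrez identifier maps to a mouse symbol beginning with Mir or Mirlet and a number, host genes left out. They numbered 643 of the 27095 windows in the table, and 168 of them (26.1%) held 1 or more reads over the 4 libraries, against 89.4% of all windows. Another 475 held 0 reads, 11 held exactly 1 and 9 held 2. The windows were between 6049 and 6134 bp long, so the level of a microRNA window describes chromatin around a hairpin of well under 1 kb and not the hairpin alone.

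H3K27me3 was mapped by Cut&Tag, in which an antibody against the histone mark tethers a transposase that cuts and tags the chromatin around it. The cells were alveolar macrophages sorted from the lungs of irradiated C57BL/6-Ly5.1 mice that had been given bone marrow of which 90% came from Ly5.2 donors and 10% from wild-type Ly5.1 competitors. The Ly5.2 donors were wild-type (WT, 2 libraries) or Suz12 conditional knockout (cKO, 2 libraries), and the donor chimera with its 10% wild-type competitor share is common to both groups. The input was 100000 cells and 0.5 µg of antibody per library, and reads were pairs of 36 bp. The labels describe the libraries of a genotype as biological replicates. The labels do not state the Cre driver, the age of the mice or any gate on Ly5.2 in the sort.

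MicroRNAs are short RNAs that are cut from hairpin transcripts by Drosha with Dgcr8 and then by Dicer1, loaded onto an Argonaute protein, and used to find messenger RNAs that pair with them, mainly through the seed at the 5′ end. Many microRNA genes lie in introns of protein-coding genes or within long noncoding host transcripts, and others form clusters that are transcribed together. H3K27me3 is laid down by Polycomb repressive complex 2, of which Suz12 is a core subunit, and covers silent developmental genes, among them microRNA genes used by other lineages. In macrophages, microRNAs such as miR-155, miR-146a and miR-223 are known regulators of inflammatory responses.

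The mature sequences below belong to the windows that the results turn on, from RefSeq for GRCm38.p6, the assembly also called mm10. Capitals mark the seed, bases 2 to 8 from the 5′ end. They are shown because the same seed recurs at loci with different amounts of the mark. The first group is the miR-30 seed, carried by the 2 neighbouring chromosome 1 genes that gained reads in the cKO libraries.
mmu-miR-30a-5p: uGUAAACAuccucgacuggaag
mmu-miR-30c-5p: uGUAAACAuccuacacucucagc

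The next are microRNAs of the Hox clusters, with the seed of miR-196 in the first lines and that of miR-10 in the last.
mmu-miR-196a-5p: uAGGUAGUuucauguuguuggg
mmu-miR-196b-5p: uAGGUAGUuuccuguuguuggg
mmu-miR-10a-5p: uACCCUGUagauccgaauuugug

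Then come microRNAs best known from neurons. The first 3 have a window or host gene among the most marked, and the last belongs to the tested window with the lowest log2 fold change.
mmu-miR-9-5p: uCUUUGGUuaucuagcuguauga
mmu-miR-129-5p: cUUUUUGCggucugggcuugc
mmu-miR-7a-5p: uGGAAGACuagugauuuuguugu
mmu-miR-138-5p: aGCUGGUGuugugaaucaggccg

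The last set sets an epithelial microRNA beside macrophage microRNAs and let-7, whose windows held few reads.
mmu-miR-203-3p: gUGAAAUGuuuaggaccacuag
mmu-miR-155-5p: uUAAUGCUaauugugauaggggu
mmu-miR-146a-5p: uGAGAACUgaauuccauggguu
mmu-miR-223-3p: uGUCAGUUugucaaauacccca
mmu-let-7i-5p: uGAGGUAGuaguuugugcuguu

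Of the 643 members, 559 had an entry in the RefSeq microRNA table. Mir124a-1, Mir124a-2, Mir124a-3, Mir133a-1, Mir133a-2 and Mir1a-2 are named without a sequence.

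The libraries held 2592297 and 2142175 counts in WT and 3331138 and 3567282 in cKO. MicroRNA windows took 0.0880% to 0.0938% of each library, or 1885 to 3346 reads, and between 134 and 146 of them had reads in any 1 library. Thinned to the smallest library the range was 128 to 137. A window with 0 reads in a library could still have held up to 3 counts, which corresponds to 0.144 to 0.226 CPM per kb by library (CPM, counts scaled to library size with TMM factors). These limits cover counting error only. Because CPM are shares of a library, a change of H3K27me3 by the same factor everywhere would not be seen. Over the gene Suz12 itself the libraries held 8 and 10 reads in WT and 11 and 10 in cKO, which measures the mark on that gene and does not check the deletion. Markers of alveolar macrophages (12 genes, such as Siglecf and Marco) lay at a median level of 0.127 CPM per kb in WT and 0.177 in cKO, below the 1.12 and 1.16 of 7 T and B cell genes and the 1.91 and 2.47 of 6 lung epithelial genes. By these medians the repressive mark was lower on the genes of the labelled cell type than on those of other types. Single genes overlapped between the lists. Marco, at 0.534 in WT and 0.490 in cKO, stood above Cdh1 (0.170 and 0.231), Epcam (0.310 and 0.333) and Cd3d (0.239 and 0.374). The other epithelial and lymphoid genes listed stood above Marco. The cKO libraries were both above WT at 7 of the 12 macrophage markers, 3 of the 6 epithelial and 1 of the 7 lymphoid genes and both below at 2, 0 and 0. Over all tested windows both were above at 23.8% and below at 23.8%. Over all 24217 windows with reads, tested or not, both were above at 5058 and below at 5416. Of the marker genes, 7 macrophage, 6 epithelial and 6 lymphoid ones were deep enough to be tested. None of those passed the test of genotype, and the part of the markers in the differences below was not tested.

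Whether a microRNA window held reads went with where it lies. Among 460 microRNA genes that lie inside another gene, 58 windows (12.6%) had reads, and among 183 outside other genes 110 (60.1%) had them. The windows of an enclosing gene and of its microRNA overlap, and the labels do not say how reads in an overlap were assigned. By overlap with any other window of the table, 57 of 60 windows that overlap none held reads. So did 67 of 83 partly overlapped windows and 14 of 83 that several other windows cover between them. Of 210 windows covered by a gene that is longer in the reference than in the deposited table, 28 held reads. Of 207 lying wholly within 1 other window, 2 did. The first of those, Mir3968 inside Trim80, held 27 and 25 reads in WT and 29 and 42 in cKO. A count of 0 at an enclosed microRNA is therefore not a measurement of absent H3K27me3. For such genes the level of the enclosing gene is given below. Where the deposited window of that gene is shorter than the reference gene, it may not contain the microRNA.

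**Figure D1:**
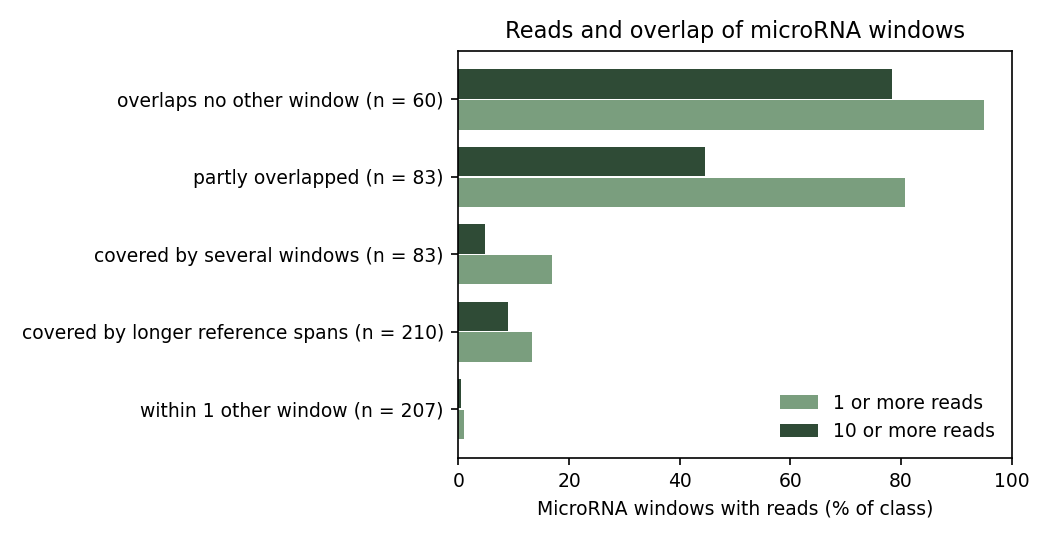
Share of microRNA windows with 1 or more reads and with 10 or more reads over the 4 libraries (x axis, percent of each class), by overlap with other windows of the table (y axis, with the number of windows). Of windows that overlap none, 57 of 60 held reads, against 2 of 207 that lie within 1 other window.

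The windows that overlap no other are the ones that can be read directly. Mir124a-3, Mir202 and Mir1195 were the 3 among them with 0 reads, though windows of the 1891 identifiers without a reference position could not be considered. The 60 windows had a median level of 0.325 ± 0.0352 CPM per kb in WT and 0.392 ± 0.0574 in cKO (SD over the 2 libraries of a genotype, n = 2, as for every SD below). The median over all windows of the table was 0.222 in WT and 0.215 in cKO.

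The reads counted in microRNA windows were concentrated in few of them. Few enclosed microRNA genes had reads, and how shared reads were assigned is not given. The concentration therefore describes counted reads and not where the mark itself lies. The 15 windows with the highest mean level among those with 10 or more reads held 6492 of 10732 reads (60.5%). They were Mir3080, Mir129-2, Mir196a-2, Mir9-2, Mir203, Mir196a-1, Mir10a, Mir375, Mir135b, Mir196b, Mir193b, Mir7-2, Mir129-1, Mir182 and Mir183. Of the 15, 10 lie inside another gene. For 10 of them the genotypes overlapped, for 3 cKO was above WT and for 2 below, where 23.8% of all tested windows had cKO above and 23.8% below. None of the 15 passed the test of genotype, which called 6.42% of all tested windows. WT library 1 was above WT library 2 at 11 of the 15, and the SD was a median of 18.9% of the mean in WT and 5.82% in cKO.

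**Figure D2:**
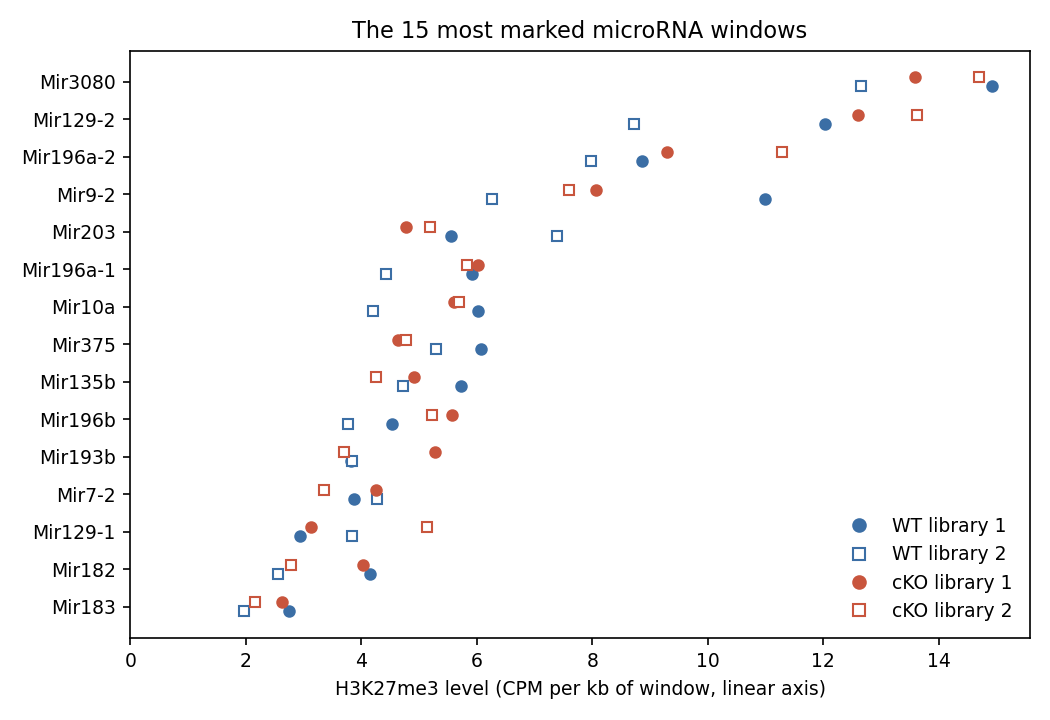
H3K27me3 level (x axis, CPM per kb of window, linear) in each library of the 15 microRNA windows with the highest mean among those with 10 or more reads (y axis). Mir3080 and Mir129-2 lie at the top with means above 10 CPM per kb in both genotypes, and the genotypes overlapped at 10 of the 15.

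Hox microRNAs sit between the homeobox genes that set positional identity along the body axis, and their windows lay among marked Hox genes, mostly at lower levels than the nearest of them. Each is overlapped, partly or wholly, by windows of other genes as placed in the reference. How shared reads were assigned is not given, so these levels are not directly comparable with those of the Hox genes. Of the 6 list members 4 held reads, and all 4 ranked among the 15. Mir196a-2 (chromosome 15, 102973350 to 102973434, mm10) lies between Hoxc10 and Hoxc9 and held 139 and 106 reads in WT and 185 and 235 in cKO. Both cKO libraries were above both WT libraries in CPM, at 10.3 ± 1.40 against 8.42 ± 0.624 CPM per kb, and the difference did not pass the test (log2 fold change 0.29 ± 0.15 SE, adjusted p = 0.309, edgeR quasi-likelihood test with Benjamini-Hochberg adjustment over all 16752 tested windows, which gave every adjusted p below). Hoxc10 was at 14.3 in WT and 16.7 in cKO, and Hoxc9 at 16.5 and 20.1.

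Mir196b (chromosome 6, 52230081 to 52230165) lies between Hoxa9 and Hoxa10, homeobox genes also known from blood progenitors. Its window held 71 and 50 reads in WT and 111 and 109 in cKO, again without overlap (4.14 ± 0.539 against 5.40 ± 0.245 CPM per kb, adjusted p = 0.337). Of the neighbours within 100 kb, 2 did pass. Hoxa9 rose from 14.5 to 18.6 CPM per kb (log2 fold change 0.35 ± 0.11, adjusted p = 0.0389), and Hoxa13, 28688 bp away, rose from 16.7 to 23.0 (0.46 ± 0.11, 0.00175). Mir196a-1 on chromosome 11, the other gene of miR-196a, held 93 and 59 reads in WT and 120 and 122 in cKO, with overlapping genotypes. Mir10a, within Hoxb3, held 95 and 56 in WT and 112 and 119 in cKO, also overlapping. Its level of 5.11 and 5.65 CPM per kb was close to that of Hoxb4 beside it (5.35 and 5.33). It was below those of Hoxb3 (9.77 and 8.99, in a deposited window shorter than the reference gene) and Hoxb5 (9.07 and 10.2). Mir10b, within the window of Hoxd4, and Mir615, within that of Hoxc5, had 0 reads. The window of Hoxc5 stood at 12.3 and 12.8 CPM per kb, whereas that of Hoxd4 itself held 0 reads. Hoxd3, whose longer window contains both Hoxd4 and Mir10b, stood at 11.7 CPM per kb in WT and 11.9 in cKO. The 3 genes with the miR-196 seed together held 303 and 215 reads in WT and 416 and 466 in cKO.

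Of the other windows among the 15, Mir129-2, Mir9-2, Mir7-2 and Mir129-1 encode microRNAs known for roles in neurons. The 3 genes of miR-9, a microRNA of neural progenitors, had 1 window with reads, Mir9-2 inside C130071C03Rik, with 172 and 83 reads in WT and 160 and 158 in cKO. WT library 1 was the highest and WT library 2 the lowest of the 4, so the cKO values lie inside the WT range (8.62 ± 3.34 and 7.83 ± 0.324 CPM per kb). Mir9-1 and Mir9-3 had 0 reads, and the windows that enclose them were among the most marked in the table. Mir9-3hg stood at 16.0 ± 1.90 CPM per kb in WT and 17.7 ± 0.639 in cKO, with 97 of the 27095 windows higher. Gm3764, around Mir9-1, stood at 12.9 and 14.2, close to C130071C03Rik at 14.3 and 15.4. All 3 loci of this seed thus lay in genes with strongly marked windows. The deposited windows of C130071C03Rik and Gm3764 are shorter than the reference genes, so they may not contain the microRNAs.

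miR-124, the most abundant microRNA of neurons, showed the same arrangement. Mir124a-1 and Mir124a-2 had 0 reads inside Mir124a-1hg (9.02 ± 0.306 in WT, 9.86 ± 0.177 CPM per kb in cKO) and Mir124-2hg (3.42 ± 0.500 and 3.74 ± 0.174). Neither host gene passed the test of genotype. Mir124a-3, which overlaps no other window with a known position, also held 0 reads.

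Mir129-2 (chromosome 2, 94241364 to 94241453), inside the noncoding gene Mir670hg, held 189 and 116 reads in WT and 251 and 284 in cKO. Both cKO libraries were above both WT libraries, at 13.1 ± 0.719 against 10.4 ± 2.34 CPM per kb, with a log2 fold change of 0.33 ± 0.14 and an adjusted p of 0.171. Without WT library 1 the difference was 0.60 with an adjusted p of 0.0235, the only setting in which it passed. Its paralogue Mir129-1, 37530 bp from Lep and overlapping no other window, held 46 and 51 in WT and 62 and 107 in cKO, with overlap of the genotypes once scaled. Mir7-2, also free of overlap, held 61 and 57 in WT and 85 and 70 in cKO (4.08 and 3.81 CPM per kb), and Mir137 held 32 and 22 in WT and 50 and 39 in cKO (1.85 and 2.20).

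MicroRNAs known from epithelial and endocrine cells varied widely in level. Mir203, a skin microRNA that restrains stem cell genes, held 87 and 98 reads in WT and 95 and 108 in cKO, and both cKO libraries were below both WT libraries (4.99 ± 0.290 against 6.47 ± 1.30 CPM per kb, adjusted p = 0.303). Mir375, a microRNA of pancreatic islet and other endocrine cells, was also lower in both cKO libraries, with 95 and 70 reads in WT and 92 and 99 in cKO (4.70 against 5.68 CPM per kb, adjusted p = 0.502). Mir205, another epithelial microRNA, was uneven between the WT libraries, at 31 and 12 reads against 14 and 19 in cKO. Mir31 held 29 and 16 in WT and 22 and 38 in cKO. The Mir182, Mir96 and Mir183 cluster of sensory organs is described with the clusters. In the miR-200 family, which holds cells in an epithelial state, no window had more than 6 reads over the 4 libraries, and Mir200a and Mir200c, each covered by several other windows, had 0.

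The microRNA window with the highest counted level was Mir3080, inside the transcription factor gene Tcf20. It held 234 and 168 reads in WT and 270 and 306 in cKO, or 13.8 ± 1.61 and 14.1 ± 0.792 CPM per kb with overlapping genotypes, and 184 of the 27095 windows stood higher. The deposited window of Tcf20, 109513 bp long and shorter than the reference gene, was at 0.497 in WT and 0.420 in cKO. Whether that window contains the hairpin is not known, so the hairpin was not compared with its gene. Mir135b in Lemd1 (90 and 63 in WT, 98 and 89 in cKO) and Mir193b in the noncoding gene Gm53058 (60 and 51, 105 and 77) completed the group.

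Of the 37 members of a list of microRNAs known as Polycomb targets in other cells, 23 had reads. In 14 tested, 7 log2 fold changes were above 0 and 7 below, and 0 passed the test of genotype, with 1 at an unadjusted p under 0.05 (Mir129-2). Of the 23, the genotypes overlapped at 17, cKO was above at 2 and below at 4. Over all 24217 windows with reads, tested or not, cKO was above at 5058 and below at 5416. The test called 6.42% of all tested windows.

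**Figure D3:**
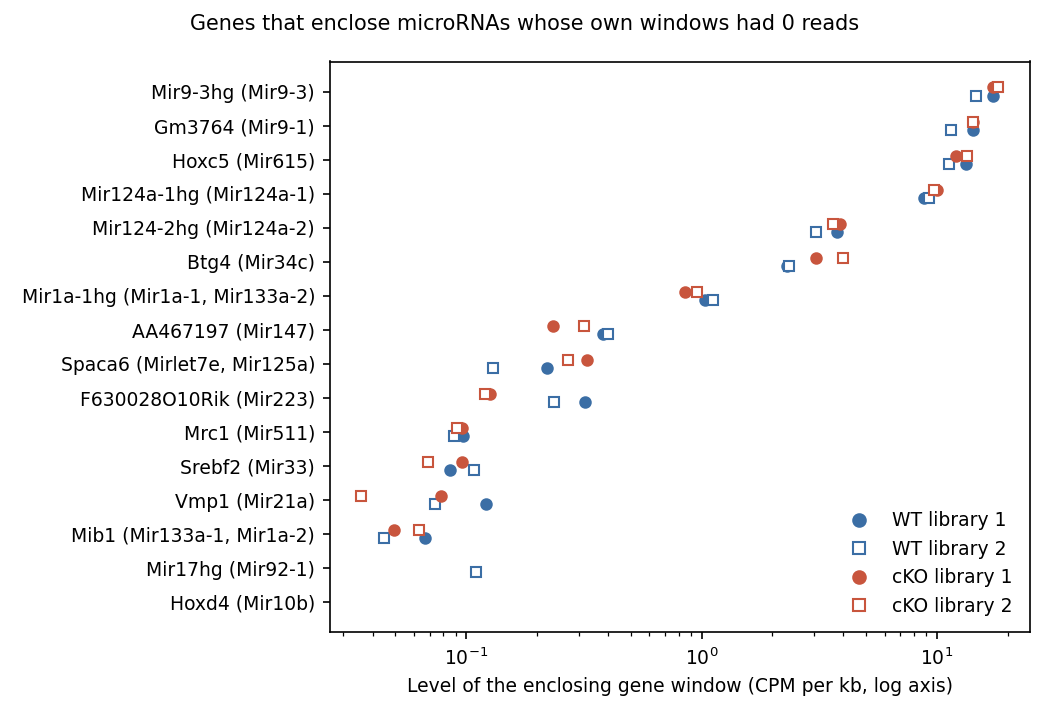
Level (x axis, CPM per kb on a log axis) in each library of genes that enclose named microRNAs whose own windows held 0 reads, with the microRNA in brackets (y axis). Libraries at 0 are not drawn, which leaves Hoxd4 empty and Mir17hg with 1 point. Some of these windows, such as those of Btg4, Spaca6 and Mib1, are shorter than the reference genes and may not contain the microRNAs. Hosts of miR-9 and miR-124 lie between 3.06 and 18.2 CPM per kb, and those of Mir223, Mir511 and Mir21a below 0.32.

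Of 29 members of a list of microRNAs known from myeloid cells, 12 had reads (41.4%, against 26.1% of all members). Of the 12, 1 was deep enough to be tested, and that was Mir9-2, listed because miR-9 is also known from stimulated monocytes, and counted above with the neural genes. Mir155, the microRNA induced by Toll-like receptor signals, held 7 and 5 reads in WT and 2 and 1 in cKO. Both cKO libraries were lower, and the ratio of cKO to WT was 0.178 (95% interval 0.0322 to 0.659, exact binomial, for counting error only). Mir146, the gene of miR-146a and a brake on the same signals, held 11 and 6 in WT and 7 and 5 in cKO, a ratio of 0.502 with an interval of 0.219 to 1.12. Mir142, which is expressed throughout blood cells, held 1 and 1 in WT and 6 and 6 in cKO, a ratio of 4.27 with an interval of 0.95 to 39.3. These 3 windows did not reach the filter on low counts, so no replicate test was made.

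Mir223, the myeloid microRNA of granulocyte maturation, had 0 reads inside F630028O10Rik, whose own window held 8 and 5 reads in WT and 4 and 4 in cKO. Within 100 kb, Vsig4, 4275 bp away, was called lost (log2 fold change -0.75 ± 0.21, adjusted p = 0.0105). So was Hsf3, 63252 bp away (-0.77 ± 0.20, 0.00644), and Msn and Gm14925 were not called. Mir21a had 0 reads inside Vmp1 (0.0971 ± 0.0335 CPM per kb in WT, 0.0569 ± 0.0298 in cKO), and Mir511 had 0 inside Mrc1, the mannose receptor gene (0.0925 and 0.0936). Mir147 inside AA467197 (0.389 and 0.275) and Mir33 inside Srebf2 (0.0965 and 0.0824) also had 0. The hosts of these myeloid microRNAs thus lay from 0.0569 to 0.389 CPM per kb in the means of the 2 genotypes, and those of miR-9 and miR-124 from 3.42 to 17.7. Mir9-2, also on the myeloid list, is counted with miR-9 in this contrast, and its enclosing gene C130071C03Rik stood at 14.3 and 15.4. The contrast therefore describes chosen examples and not the whole myeloid list, with no test.

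Comparing genotypes asks which microRNA windows carry more or less of the mark when Suz12 is deleted in the donor cells. Of 643 members, 55 had enough reads to be tested. Mir30a passed with a gain and 0 passed with a loss. Over all 16752 tested windows 4.46% were called gained and 1.96% lost, so the 1 of 55 called (1.82%) is below the 6.42% called in either direction. At an unadjusted p under 0.05 there were 6 members (10.9%), against 18.5% of all tested windows. The cKO libraries were both above WT at 11 of the 55 and both below at 10, or 20.0% and 18.2%, against 23.8% of all tested windows in each direction. The log2 fold changes ran from -1.81 to 2.08. Mir30a passed the filter through its cKO libraries, so these counts over the tested members support nothing on their own.

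**Figure D4:**
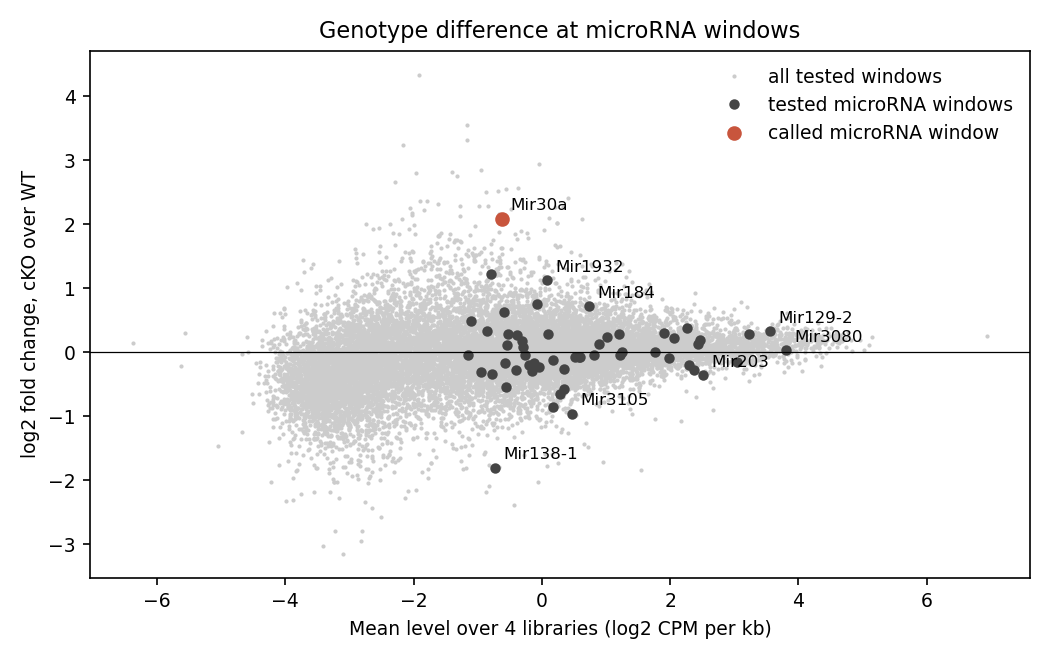
Log2 fold change of cKO over WT (y axis) against the mean level over the 4 libraries (x axis, log2 CPM per kb) of 55 tested microRNA windows (dark points, the called one in red) on all 16752 tested windows (grey). Mir30a at 2.08 is the only called microRNA window, and the most marked windows, such as Mir3080 at 0.03, lie near 0.

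Mir30a (chromosome 1, 23272269 to 23272339) encodes a microRNA of a family known for restraining autophagy and other stress responses. Its window held 2 and 5 reads in WT and 18 and 25 in cKO, or 0.252 ± 0.176 and 1.05 ± 0.209 CPM per kb. The cKO libraries both lay well above the WT libraries. The log2 fold change was 2.08 ± 0.63 with an adjusted p of 0.0225. The call rested on few reads: it was lost without WT library 1 (1.48, adjusted p = 0.304), without cKO library 1 (2.27, 0.122), without cKO library 2 (1.86, 0.512) and after thinning to the smallest library (1.81, 0.154), while the direction was the same in each.

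Mir30c-2 lies 19362 bp further on, at 23291701 to 23291784, and encodes the miR-30c shown above with the same seed. It was below the filter and was chosen after its values were seen. Its window held 0 and 1 reads in WT and 22 and 11 in cKO, so the groups did not overlap. The ratio was 23.5 with an exact 95% interval of 3.93 to 955 for counting error. With no filter on low counts Mir30c-2 was called as well, with an adjusted p of 0.00102. When microRNA genes up to 50 kb apart were joined, the pair summed to 2 and 6 reads in WT and 40 and 36 in cKO. Its log2 fold change was 2.72 ± 0.52 and its adjusted p 2.83e-05. It was the only cluster called at that distance. The pair, like Mir30a, reached the filter through its cKO libraries, and it holds Mir30a itself, so its p is no separate support for the gain.

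The windows of both genes overlap no other window, and besides them 1 gene lies within 100 kb of Mir30a. That gene, Ogfrl1, 94085 bp from Mir30a, held 12 and 15 reads in WT and 15 and 19 in cKO, with overlapping genotypes and a log2 fold change of -0.17 ± 0.49. Other genes of the miR-30 family or with its seed held few reads, or as many in WT as in cKO once scaled. Mir384 on the X chromosome held 24 and 19 in WT and 27 and 30 in cKO (log2 fold change -0.08, adjusted p = 0.944). Mir30c-1 and Mir30e had 0 reads inside Nfyc, a gene at 0.0773 in WT and 0.0794 CPM per kb in cKO. The deposited window of Nfyc may not contain them. Mir30b held 0 and 1 reads in WT and 0 in both cKO libraries, and Mir30d 0 in both WT libraries and 1 and 4 in cKO.

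**Figure D5:**
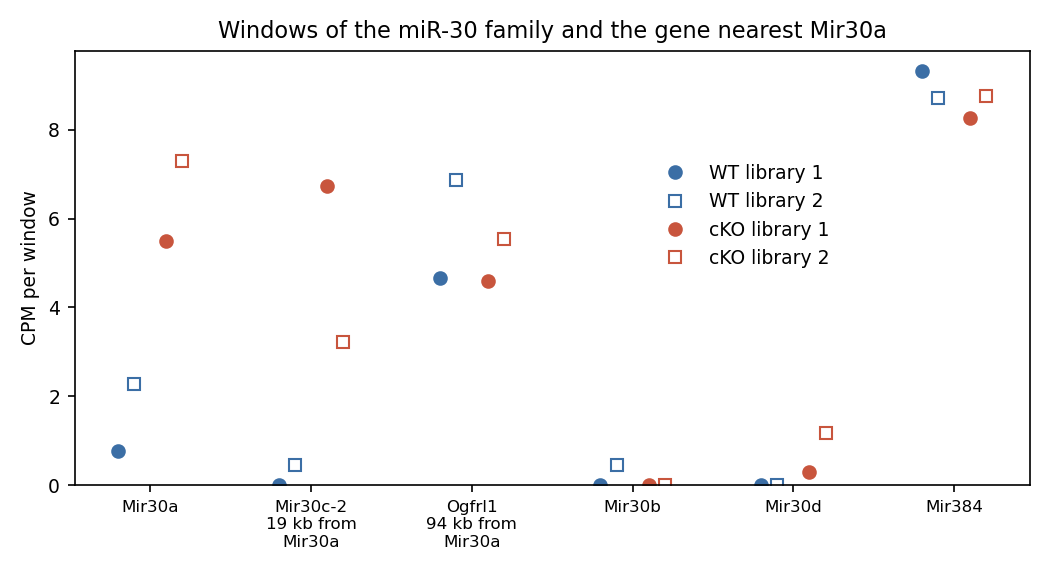
CPM per window (y axis) in each library for genes of the miR-30 family that held reads and for Ogfrl1, the gene nearest Mir30a (x axis, with the distance from Mir30a for the first neighbours). At Mir30a and Mir30c-2 both cKO libraries lie above both WT libraries, and at Ogfrl1 and Mir384 the genotypes overlap.

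The other 4 windows with the lowest p did not pass the test. Mir138-1, a gene of a microRNA of dendritic spines in neurons, was the lowest of the tested members, with 18 and 10 reads in WT and 1 and 10 in cKO. The log2 fold change was -1.81 ± 0.63 with an adjusted p of 0.0615. Both cKO libraries were below both WT libraries after scaling, and they differed from each other, at 1 and 10 reads. Mir1932, inside Rnf213, held 8 and 11 in WT and 29 and 30 in cKO (1.13 ± 0.46, adjusted p = 0.133). Mir3105, inside the synaptic scaffold gene Shank2, held 29 and 24 in WT and 20 and 18 in cKO (-0.96 ± 0.39, 0.136). At Mir1932 and Mir3105 the genotypes did not overlap. Their hosts have deposited windows shorter than the reference genes, which may not contain the microRNAs. Rnf213 was at 0.125 in WT and 0.107 CPM per kb in cKO, and Shank2 at 2.25 and 2.46. Near Mir1932, both cKO libraries were above both WT libraries at Slc26a11, 9396 bp away (4.81 and 5.89), and at Sgsh (11.2 and 13.2). Neither gene passed the test, and the genotypes overlapped at Card14, Eif4a3 and Rnf213.

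MicroRNA genes no more than 10 kb apart formed 68 clusters of 2 or more with 274 members. Of these clusters 32 had reads and 36 had none, and 63 of the 274 clustered members had reads, against 105 of 369 single genes. Reads of a cluster were summed per library and tested in the table with the sums in place of the single rows. Of 6 clusters deep enough to test, edgeR called 0, with 0 at an unadjusted p under 0.05, while 6.4% of all rows of that table were called.

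The sensory cluster of Mir182, Mir96 and Mir183 on chromosome 6, inside Mirc35hg, was the fullest, with 124 and 73 reads in WT and 150 and 118 in cKO. Its genotypes overlapped, with a log2 fold change of -0.04 ± 0.18. Mir193b and Mir365-1 on chromosome 16 held 72 and 61 in WT and 125 and 92 in cKO (0.22 ± 0.21). The muscle pair of Mir206 and Mir133b held 2 and 9 in WT and 14 and 10 in cKO (0.61 ± 0.66).

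On the X chromosome 2 neighbouring clusters of microRNAs, known mainly from the testis, were deep enough to test. The 13 genes from Mir743 to Mir470 held 25 and 26 reads in WT and 50 and 54 in cKO (0.53 ± 0.31, adjusted p = 0.362). The genotypes did not overlap, and the difference did not pass the test. Within it Mir471 held 1 and 1 in WT and 11 and 12 in cKO, and Mir470 held 3 and 3 in WT and 11 and 14 in cKO. Both were under the filter and were chosen after their values were seen. By contrast Mir871 in the same cluster held 11 and 12 in WT and 17 and 5 in cKO. The 5 genes from Mir465c-1 to Mir465 held 34 and 35 in WT and 33 and 53 in cKO (-0.18 ± 0.30). These last are near-identical copies, between which short reads may be divided uncertainly.

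The 3 largest clusters are all imprinted or lie in imprinted genes. The 40 microRNAs from Mir669e to Mir669h, inside the Polycomb-related gene Sfmbt2 on chromosome 2, had 0 reads. The 38 from Mir379 to Mir3072 in the Dlk1 to Dio3 domain of chromosome 12 had 4 windows with reads. The 15 from Mir770 to Mir136, in and beside Meg3 and Rtl1, also had 4 and held 9 and 11 reads in WT and 13 and 18 in cKO (0.13 ± 0.54), most of them at Mir493 (5 and 9, 10 and 15). Windows inside these clusters overlap one another and their hosts, and for the cluster from Mir770 to Mir136 and the one in Sfmbt2 no base of the summed windows is unshared.

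Enclosing genes give a second view of microRNAs that had 0 reads. The table held 302 genes that enclose a member, of which 231 were tested. Of these 10 were called gained and 5 lost, or 6.49% against 6.42% of all tested windows. The genes named here were chosen after their values were seen. Those lost were Htr2c, Pde4d, Phf21a, Dnm2 and Atg5, of which the last 3 were no longer called without cKO library 2 (adjusted p of 0.330, 0.494 and 0.435). Htr2c, a serotonin receptor gene with Mir764, Mir1912, Mir1264, Mir1298 and Mir448 in it, fell from 258 and 233 reads to 96 and 92 (log2 fold change -1.88 ± 0.15, adjusted p = 6.8e-25). Pde4d, a phosphodiesterase gene with Mir582 and Mir1904, fell from 1697 and 1432 to 1496 and 1516 reads in the deeper cKO libraries (-0.55 ± 0.09, 1.25e-07). Among the gains, Rnls with Mir3970 rose from 189 and 174 reads to 450 and 512 (0.91 ± 0.12, 4.18e-10), and the phosphatase gene Ptpre with Mir1962 rose from 1580 and 1190 to 2719 and 2779 (0.50 ± 0.08, 7.62e-07). Scaling to housekeeping genes ended the calls of Pde4d (-0.27, adjusted p = 0.592) and Ptpre (0.78, 0.0729). The change was not located within these windows, which are far longer than the microRNAs in them.

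The genes that make and use microRNAs were mostly low in H3K27me3, and one of them gained it. Among 39 pathway genes, 26 were tested, 1 was called gained and 0 lost, against 4.46% and 1.96% of all tested windows. Tut4, a terminal uridylyltransferase that adds uridines to precursor let-7 bound by Lin28, held 168 and 121 reads in WT and 532 and 555 in cKO. Its level rose from 0.569 ± 0.0650 to 1.53 ± 0.00386 CPM per kb, a log2 fold change of 1.42 ± 0.13 with an adjusted p of 1.41e-21, and it was called in every setting run. Tut7, the related enzyme, held 16 and 15 in WT and 19 and 13 in cKO (-0.44). Lin28b, which blocks let-7 maturation in embryonic cells, was marked in both genotypes and held 601 and 423 in WT and 854 and 904 in cKO. Both cKO libraries were above both WT libraries, at 2.64 ± 0.0205 against 2.14 ± 0.280 CPM per kb, and the log2 fold change of 0.30 ± 0.10 missed the threshold with an adjusted p of 0.0534. It passed without WT library 1 (0.45, 0.00388) and with no filter on low counts (0.31, 0.0463). Lin28a held 274 and 201 in WT and 378 and 384 in cKO (0.19 ± 0.12). Trim71, a let-7 target and ubiquitin ligase of stem cells, was at 5.00 and 4.85 CPM per kb.

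Few reads were counted at the let-7 genes themselves. Of 12 genes listed with the let-7 seed 5 had reads, 36 in all, with 9 and 6 in WT and 12 and 9 in cKO. Mirlet7i, the only one of the 12 that overlaps no other window, held 3 and 2 in WT and 1 and 0 in cKO. Mirlet7a-2, which is not among the 12, had 0 reads inside Mir100hg. Mirlet7f-2 and Mir98 had 0 reads inside Huwe1, which stood at 1.04 and 0.983 CPM per kb. Mir1961 had 0 inside Shroom3 (1.51 and 1.37), Mirlet7g 0 inside Wdr82 (0.0790 and 0.0792) and Mirlet7e 0 inside Spaca6 (0.175 and 0.297). A count of 0 at these enclosed genes does not measure absent mark. The deposited windows of Huwe1 and Spaca6 are shorter than the reference genes and may not contain the microRNAs named with them.

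The 39 pathway genes had a median level of 0.110 CPM per kb in WT and 0.0884 in cKO, against 0.0889 and 0.0687 for 50 housekeeping genes. Drosha, which makes the first cut, held 30 and 26 reads in WT and 28 and 16 in cKO (0.101 and 0.0568 CPM per kb, log2 fold change -0.83 ± 0.38, adjusted p = 0.197). Dicer1, which makes the next, held 19 and 10 in WT and 15 and 8 in cKO (-0.80). Dgcr8, the partner of Drosha, held 12 and 19 in WT and 22 and 11 in cKO (-0.41), and Ago2, the slicing Argonaute, held 37 and 34 in WT and 41 and 43 in cKO (-0.25). Of the 26 tested pathway genes 20 had a log2 fold change below 0. So did 13 of 17 tested housekeeping genes, and 8655 of all 16752 tested windows.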

How the data were processed

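H3K27me3 Cut&Tag libraries of 2 WT and 2 cKO samples were grouped by their labels. A table of integer read counts per gene window was deposited by the authors, made with featureCounts on mm10 per the submitters' processing notes. The labels name no aligner, duplicate handling or overlap option. All 643 microRNA windows had the deposited length of the reference gene plus 3 kb on each side, within 25 bp. RefSeq GRCm38.p6 gave symbols and positions for 25204 of 27095 identifiers.

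CPM used TMM factors. Genotypes were compared over the whole table with edgeR 4.0.16 in R 4.3.3 (filterByExpr, quasi-likelihood test), with adjusted p below 0.05 as a call. On simulated counts for this comparison (16196 rows), 27.4% of 1.5-fold, 62.7% of 2-fold and 85.7% of 3-fold changes were recovered, and 4 of 111 calls were unchanged rows. The simulation gave every row the same dispersion and drew the changed rows from all tested windows. These rates are therefore not those of microRNA windows. Alternatives were DESeq2 1.42.0, other scalings, filters, thinning, cluster distances and omitted libraries.

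Named windows were those called, the 15 highest with 10 or more reads, the 5 with the lowest p, the 3 largest clusters and the Hox, myeloid and Polycomb lists. The members and lists were chosen with earlier results of these data known. Libraries of the same number do not deviate together (r = 0.00321 over 7808 windows, across windows, which are not independent), so the numbers were not taken to pair them.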

Additional observations from a re-analysis of the deposited data

How the results depend on the processing

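Precision is limited by depth: 55 of 643 windows could be tested, with 2 libraries per genotype. The count of called windows, 1 as fitted, was 2 with no filter on low counts and 0 with a mean count of at least 50 (Mir30a is then not tested), with the DESeq2 Wald test and after thinning; DESeq2 gave Mir30a an unadjusted p of 0.0228 and no adjusted p. It ran from 0 to 2 with 1 library left out. Called clusters were 1 at 50 kb. Called pathway genes were 2 with no filter and 1 to 2 with 1 library left out, Tnrc6c being the second without cKO library 1 (-1.43, adjusted p = 0.0308). With replicate number as a block, Mir30a was again the only window called (2.09, adjusted p = 0.0272), and no call changed.

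Windows with reads were 108 at 10 or more. The share with reads inside other genes was 9.13% at 10 or more reads, 8.80% for windows lying within other windows, and 0.966% for windows within 1 other window of matching length. The share outside was 48.6% at 5 or more reads, 36.1% at 10 or more, 47.4% counting genes of the same strand alone, 86.7% for windows not lying within others and 95.0% for windows overlapping none.

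Signs that turned all belong to values that were not called, and the cause was not tested. Housekeeping scaling, which moved the median of all windows to 0.26, gave Ago2 0.025, Mir135b 0.072, Mir31 0.21, Mir7-2 0.17, Mir9-2 0.11, the Mir182 to Mir183 cluster 0.22 and the Mir465c-1 to Mir465 cluster 0.11. Library totals alone, upper-quartile factors and thinning gave Mir182 -0.051, -0.081 and -0.20, Mir183 -0.044, -0.074 and -0.032, and Mir3080 -0.023, -0.053 and -0.098. A mean count of at least 50 gave Mir182 -0.049 and Mir3080 -0.021. With 1 library left out, the lowest and highest values were -1.02 and 0.097 for Dgcr8, -0.084 and 0.43 for Mir10a, -0.11 and 0.62 for Mir129-1, -0.28 and 0.41 for Mir182, -0.19 and 0.29 for Mir183, -0.045 and 0.46 for Mir193b, -0.067 and 0.17 for Mir3080, -0.47 and 0.29 for Mir31, -0.069 and 0.40 for Mir365-1, -0.27 and 0.070 for Mir7-2, -0.48 and 0.33 for Mir9-2, and for the summed clusters -0.25 and 0.27 (Mir182 to Mir183), -0.050 and 0.46 (Mir193b to Mir365-1) and -0.52 and 0.097 (Mir465c-1 to Mir465).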
